A study of Mus musculus with 2 samples.

Results

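The TNF superfamily of ligands and the TNF receptor superfamily were measured in innate lymphoid cell (ILC) progenitors from Yeats4-deleted mice and from wild-type mice. Members were the genes whose annotated symbol is Tnfsf or Tnfrsf followed by a number, together with Tnf, Lta, Ltb, Ltbr, Cd27, Cd40 and Fas. The rule found 35 of the 19505 named genes, of which 23 encode receptors and 12 encode ligands, with 1 probe set each. It matched 38 protein-coding genes in the RefSeq gene table, and Cd27, Tnfsf12 and Tnfsf13 were not analysed here. One array held RNA of progenitors with the genotype Yeats4 knockout and the other RNA of wild-type littermates. Yeats4 encodes a reader of acetylated histones in the SRCAP and Tip60 chromatin complexes, and the comparison addresses which genes depend on it in these progenitors. The cells were sorted as lineage-negative, CD127+, α4β7+ and intermediate for c-Kit and Sca-1. The labels give no strain, age, deleter Cre or number of mice for either genotype. With 1 array per genotype there was no replicate error, and no difference below was tested.

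Ligands of this family are mostly trimers, held at the cell surface or released from it, and each binds 1 or several receptors with cysteine-rich repeats outside the cell. Inside the cell, receptors with a death domain can recruit adaptors that lead to caspase activation or to NF-κB, whereas other receptors bind TRAF proteins, and decoy receptors bind ligand without a full signal. In lymphoid tissue the family is known for lymph node formation by lymphotoxin, for B cell survival through BAFF, and for costimulation of T cells and ILCs through receptors such as GITR and DR3. GITR, encoded by Tnfrsf18, and DR3, encoded by Tnfrsf25, are both known on ILCs as well as on T cells.

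The deposited values are on a log2 scale, and a positive difference means a higher reading on the array labelled knockout. The level filter kept genes whose mean over both arrays reached 2.88, which is the median over all probe sets. Of the 35 members 22 did so, namely 16 receptors and 6 ligands, among 10881 genes of the series. The negative control level is the 95th percentile of the negative control probe sets, 4.73 on the array labelled knockout and 4.80 on the wild-type array. The higher of these, 4.80, was applied to both arrays, and a gene under it on both is called near background. By this measure 10 members were above the level on both arrays, 2 on the wild-type array only and 23 on neither, while 26.7% of all named genes were above it on both. A gene under 4.80 on 1 array has its fold written as "at least", computed against 4.80 with the other reading taken as exact, and near background no fold is given. To describe the scatter between these arrays, each difference stands beside that of the 500 genes closest to it in level, through their median (local median) and their scaled median absolute deviation (local spread). The Yeats4 probe set read 5.90 on the array labelled knockout and 5.96 on the wild-type array, so the transcript level did not check the label. The position of its probes against the deletion is not known from the labels.

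Of the gate, the genes of CD127, c-Kit and α4β7 were examined, and that of Sca-1 was not. Il7r, Kit, Itga4 and Itgb7 were all above the negative control level on both arrays. The samples were not alike in them, since Il7r, which encodes CD127, read 6.38 on the array labelled knockout and 7.07 on the wild-type array, 1.62-fold lower (-0.70, local spread 0.28). Kit read 7.77 on the array labelled knockout and 7.12 on the wild-type array, 1.57-fold higher (0.65, local spread 0.25). Marker lists of several blood cell types, NK cells and ILC1 among them, were measured too, and most differed between the arrays. Whether the gated cells themselves express these genes was not tested. Of the 13 T cell markers past the level filter 12 read lower on the array labelled knockout (median -1.06), and their summed linear signal over 14 genes was 316 on the array labelled knockout and 852 on the wild-type array. All 11 B cell markers past the filter read lower (median -0.76), with a summed signal over 12 genes of 786 on the array labelled knockout and 1413 on the wild-type array. All 12 macrophage markers read higher (median 0.74), with sums of 930 on the array labelled knockout and 598 on the wild-type array. Of the NK and ILC1 markers 5 of 8 read lower (median -0.68), with sums over 12 genes of 830 on the array labelled knockout and 986 on the wild-type array. In the array labelled knockout 3 of 14 T cell markers and 6 of 12 B cell markers were above the negative control level, against 10 of 14 T cell markers and 8 of 12 B cell markers in the wild-type array. Macrophage markers were above it for 9 of 12 on each array. Eosinophil markers read lower in 5 of 7 (median -1.56), with sums over 8 genes of 702 on the array labelled knockout and 2002 on the wild-type array. Neutrophil and monocyte precursor markers split, with 7 of 11 lower (median -0.21), among them Ltf (-0.55) and Mmp9 (-0.50), and 4 higher, among them Ctsg (0.72) and Prtn3 (0.55). Their sum over 11 genes was 13332 on the array labelled knockout and 12100 on the wild-type array. For the 4 gate genes the sum was 548 on the array labelled knockout and 528 on the wild-type array. Elane read 11.47 on the array labelled knockout and 11.14 on the wild-type array, above each of the gate genes. Dendritic cell markers were lower in 3 of 7 (median 0.00), with sums over 9 genes of 495 on the array labelled knockout and 477 on the wild-type array. Over all 19505 genes the summed signal was higher on the array labelled knockout too, at 8.51e+05 against 7.92e+05 on the wild-type array. Since each array measured a whole sorted sample, fewer cells of a type and less RNA per cell cannot be told apart. The part of any of these cell types in the differences of TNF family members, or of the other genes below, was not tested.

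No receptor or ligand differed 2-fold among the 22 members past the filter. Of all genes past the filter, 1.56% read higher and 0.781% lower by that factor, so the absence of 2-fold differences among 22 genes is near the background. At 1.5-fold, 2 of 16 receptors (Tnfrsf18 and Tnfrsf25) and 1 of 6 ligands (Tnfsf10) were lower as measured and no member was higher. Of these 3, only Tnfrsf18 was above the negative control level on both arrays. The background was 5.16% for 1.5-fold lower and 9.16% for 1.5-fold higher. Receptors had a median difference of 0.10, with a 95% order-statistic interval over members of -0.48 to 0.42, against 0.08 for all genes past the filter. Of the 16 receptors 9 read higher, 6 lower and 1 equal, while 58.2% of all genes read higher and 41.0% lower. The ligand median was -0.32 (interval -0.62 to 0.27), and 5 of the 6 ligands read lower. Both intervals cover the scatter among genes, not between mice. The ligand interval is the full range, from the lowest to the highest of the 6 ligands. No comparison with the median of all genes is drawn from either interval. With values under 4.80 raised to it, both medians were 0.00.

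**Figure D1:**
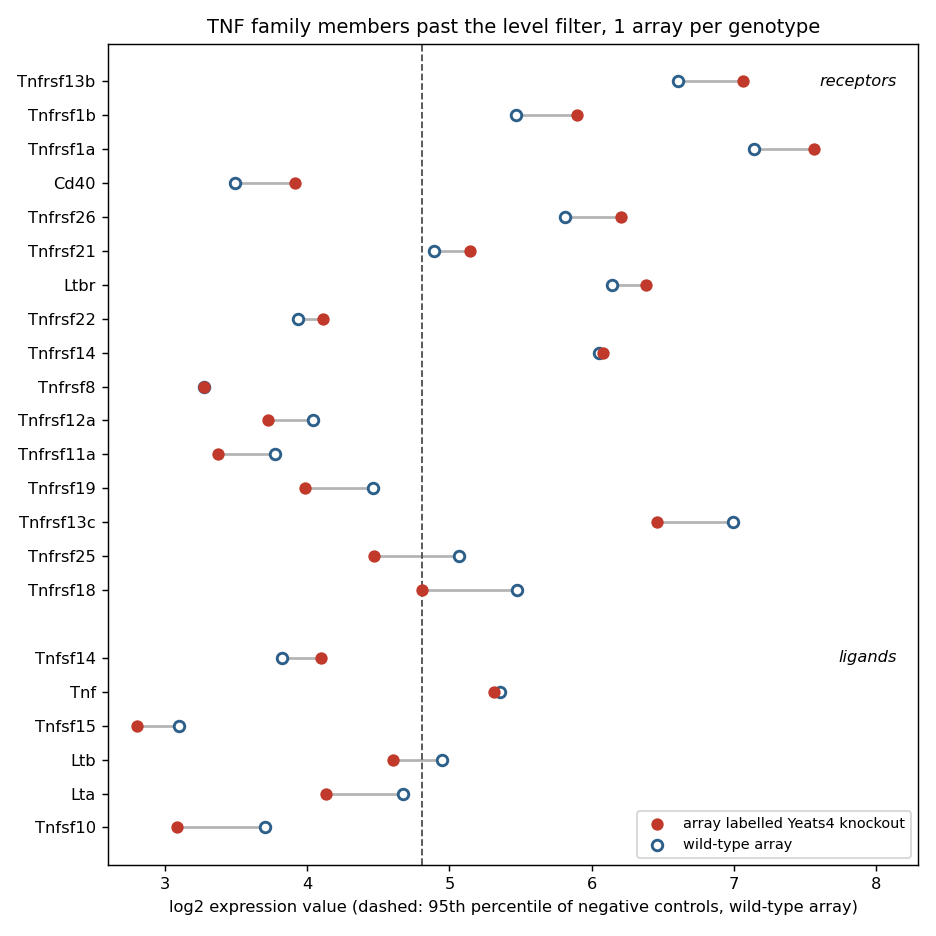
Levels of the 22 family members past the level filter. Each row is a gene, the x axis is the log2 expression value, filled red points are the array labelled Yeats4 knockout, open blue points the wild-type array, and the dashed line is the negative control level of 4.80. Receptors stand above ligands, each ordered by difference. Tnfrsf13b, at the top, read 7.07 on the array labelled knockout and 6.61 on the wild-type array, and Tnfrsf18, at the foot of the receptors, read 4.81 on the array labelled knockout and 5.48 on the wild-type array.

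Among the costimulatory receptors, GITR read lower on the array labelled knockout. Tnfrsf18 (Entrez gene 21936) read 4.81 on the array labelled knockout and 5.48 on the wild-type array. This is 1.59-fold lower (-0.67, local median 0.13, local spread 0.34), and only 4 of the 500 genes nearest in level, itself among them, had a difference as low. The reading on the array labelled knockout lay only just above the negative control level. Its ligand gene Tnfsf18 was under the level filter, at 0.81 on the array labelled knockout and 0.97 on the wild-type array. Tnfrsf4, which encodes OX40 and lies next to Tnfrsf18 in the RefSeq annotation, was near background at 2.40 on the array labelled knockout and 2.71 on the wild-type array, so the neighbours could not be compared by fold.

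DR3, a death domain receptor that costimulates lymphocytes, read lower as well. Tnfrsf25 (Entrez gene 85030) read 4.47 on the array labelled knockout, under the negative control level, and 5.07 on the wild-type array. It was at least 1.20-fold lower, with a measured difference of -0.60 against a local spread of 0.41, and 18 of the 500 nearest genes were as low. The limit is smaller than the local spread, since raised to the negative control level the difference was -0.26. The gene of its ligand TL1A, Tnfsf15, was near background at 2.80 on the array labelled knockout and 3.10 on the wild-type array. Both Tnfrsf18 and Tnfrsf25 are expressed by ILCs and also by T cells, whose markers read lower on the same array (median -1.06). Markers of NK cells and ILC1 read lower there in 5 of 8 (median -0.68). A part of T cells or of ILCs in these differences was not tested.

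The receptors for the B cell survival factor BAFF stood on opposite sides. Tnfrsf13c (Entrez gene 72049), which encodes the BAFF receptor, read 6.46 on the array labelled knockout and 7.00 on the wild-type array. This is 1.45-fold lower (-0.53, local median 0.17, local spread 0.28), and 10 of the 500 nearest genes were as low. Tnfrsf13b (Entrez gene 57916), which encodes TACI, a receptor for BAFF and APRIL, read 7.07 on the array labelled knockout and 6.61 on the wild-type array. This is 1.37-fold higher (0.46, local median 0.16, local spread 0.28), and 63 of the 500 nearest genes were as high. After a loess correction on level the differences were -0.69 and 0.30. BCMA, encoded by Tnfrsf17 and known from plasma cells, was under the level filter and near background at 3.20 on the array labelled knockout and 2.42 on the wild-type array. The BAFF gene, Tnfsf13b, read 2.81 on both arrays, also near background. Tnfrsf13c is a gene of B cells, whose markers read lower on the same array (median -0.76), and TACI is known from B cells too. A part of B cells in these differences was not tested.

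Promoters of the 3 receptors that lay lowest, of Tnfrsf13b on the opposite side and of the ligand gene Ltb are shown. They are the receptors past the level filter with the lowest and the highest measured difference, and the ligand gene with a κB match. Each is the 250 bases before the transcript start, 5′ to 3′ on the gene's strand, from RefSeq (GRCm38.p6), in which 28 of the 35 members had an entry. Capitals mark matches, on either strand, to the κB consensus or to the RUNX core TGTGGT. For Tnfrsf25, which has several starts, the window of the most upstream is shown.
Tnfrsf18 (chr4:156026072-156026321, strand +): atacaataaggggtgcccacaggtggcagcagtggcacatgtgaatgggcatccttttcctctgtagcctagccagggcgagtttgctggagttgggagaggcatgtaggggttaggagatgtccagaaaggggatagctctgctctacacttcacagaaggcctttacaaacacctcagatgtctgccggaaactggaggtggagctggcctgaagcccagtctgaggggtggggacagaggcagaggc
Tnfrsf25 (chr4:152115684-152115933, strand +): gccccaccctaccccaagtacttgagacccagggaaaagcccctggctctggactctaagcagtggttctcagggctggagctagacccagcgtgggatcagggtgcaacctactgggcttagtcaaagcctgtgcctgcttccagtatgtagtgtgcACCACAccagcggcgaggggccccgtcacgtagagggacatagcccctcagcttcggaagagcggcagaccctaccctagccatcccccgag
Tnfrsf13c (chr15:82224381-82224630, strand -): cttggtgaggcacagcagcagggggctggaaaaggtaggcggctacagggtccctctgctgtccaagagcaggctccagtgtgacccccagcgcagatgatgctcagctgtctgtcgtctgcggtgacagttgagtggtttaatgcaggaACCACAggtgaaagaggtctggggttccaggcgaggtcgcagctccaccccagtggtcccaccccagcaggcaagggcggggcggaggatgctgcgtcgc
Tnfrsf13b (chr11:61126505-61126754, strand +): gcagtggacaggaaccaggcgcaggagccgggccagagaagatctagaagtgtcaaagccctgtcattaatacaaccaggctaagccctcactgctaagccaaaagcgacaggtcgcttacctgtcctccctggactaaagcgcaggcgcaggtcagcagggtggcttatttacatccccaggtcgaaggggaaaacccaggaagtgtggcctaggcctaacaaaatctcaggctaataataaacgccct
Ltb (chr17:35194257-35194506, strand +): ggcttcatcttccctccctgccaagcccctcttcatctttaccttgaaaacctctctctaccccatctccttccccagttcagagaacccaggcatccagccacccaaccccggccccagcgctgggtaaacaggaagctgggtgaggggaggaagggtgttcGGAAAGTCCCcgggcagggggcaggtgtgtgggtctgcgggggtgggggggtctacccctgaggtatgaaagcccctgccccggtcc
The RUNX core is present in the windows shown for Tnfrsf25 and Tnfrsf13c, beginning 92 and 100 bases before the start. The other Tnfrsf25 window (chr4:152116093-152116342), not shown, has no match to either motif. It was found in 2 of 32 member promoters and in 14.0% of the 32851 promoters of the table. The κB consensus was found in 3 of 32 member promoters, those of Ltb, Tnfrsf8 and Tnfrsf9, and in 3.9% of all promoters. In Ltb it begins 87 bases before the start. Matches describe these windows and are not binding sites, and a window without a match lacks only these letters. The motifs do not overlap in the windows shown.

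The TNF and lymphotoxin axis was measured best on its receptor side. Tnfrsf1a (Entrez gene 21937), the death domain receptor for TNF found on most cells, read 7.57 on the array labelled knockout and 7.14 on the wild-type array, 1.34-fold higher (0.43, local median 0.16, local spread 0.25). Tnfrsf1b (Entrez gene 21938), the TRAF-binding TNF receptor of leukocytes, read 5.90 on the array labelled knockout and 5.47 on the wild-type array, also 1.34-fold higher (0.43, local median 0.14, local spread 0.34). Both TNF receptors thus read higher by the same factor, and 61 and 94 of the 500 genes nearest in level were as high. Ltbr (Entrez gene 17000), the lymphotoxin β receptor known from stromal and myeloid cells, read 6.38 on the array labelled knockout and 6.14 on the wild-type array, a difference of 0.24 against a local median of 0.16. Tnfrsf1a and Ltbr lie close together, with 1 protein-coding gene between them in RefSeq. Myeloid cells are known to express all 3 receptors. Marker medians were 0.74 for macrophages, -0.21 for neutrophil and monocyte precursors, whose list split, and -1.56 for eosinophils. A part of myeloid cells in the differences of these receptors was not tested.

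The 3 ligand genes of the axis lie side by side, and lymphotoxin marks lymphoid tissue inducer cells. Tnf (Entrez gene 21926) read 5.31 on the array labelled knockout and 5.36 on the wild-type array, a difference of -0.05 that is small beside the local spread of 0.37. Ltb (Entrez gene 16994), the membrane-anchoring lymphotoxin chain, read 4.60 on the array labelled knockout and 4.95 on the wild-type array. It was at least 1.10-fold lower (-0.34 as measured, local spread 0.41). Lta, which encodes the secreted lymphotoxin chain, was near background at 4.13 on the array labelled knockout and 4.67 on the wild-type array. Among ligands, Tnf alone was above the negative control level on both arrays.

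**Figure D2:**
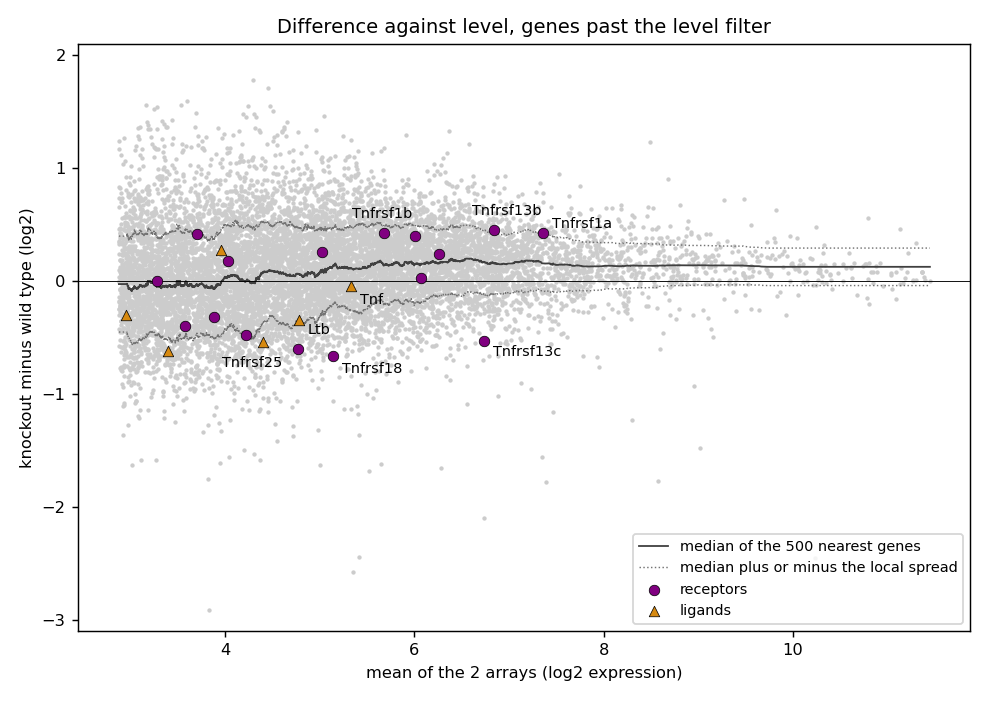
Difference against mean level for the 10881 genes past the filter. Grey points are genes, the x axis is the mean log2 value of both arrays, the y axis is knockout minus wild type on the log2 scale, purple circles are receptors, orange triangles are ligands, the solid line is the local median and the dotted lines lie 1 local spread from it. Tnfrsf18 (-0.67) and Tnfrsf13c (-0.53) lie farthest under the lower dotted line among the members, while Tnfrsf13b (0.46) and Tnfrsf1a (0.43) lie close to the upper line.

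Read against genes of like level, the receptors farthest from their local medians lay on the low side. Tnfrsf13c lay 2.50 and Tnfrsf18 2.37 local spreads under the local median, so 2 of 16 receptors were more than 2 local spreads below it, where the background was 2.35%. None was more than 2 local spreads above it (background 3.12%). Tnfrsf25 lay 1.61 spreads under its local median, whereas Tnfrsf1a and Tnfrsf13b lay 1.09 and 1.08 spreads over theirs. No receptor or ligand differed by more than 3 local spreads. Of the 9 receptors above the negative control level on both arrays 7 read higher, but so did 66.6% of all genes above it on both, and that share is near the background.

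The other receptors above the negative control level on both arrays had differences from 0.03 to 0.40. Tnfrsf14 (Entrez gene 230979), which encodes HVEM, the receptor for LIGHT and BTLA, read 6.08 on the array labelled knockout and 6.05 on the wild-type array. Its difference of 0.03 was under the local median of 0.14, and it changed sign after centring (-0.05), loess correction (-0.12) and quantile normalization (-0.11). LIGHT, encoded by Tnfsf14, was near background at 4.09 on the array labelled knockout and 3.82 on the wild-type array. Tnfrsf21 (Entrez gene 94185), the death receptor DR6, read 5.15 on the array labelled knockout and 4.89 on the wild-type array, a difference of 0.25 beside a local spread of 0.38. Tnfrsf26 (Entrez gene 244237), a mouse receptor without a death domain, read 6.21 on the array labelled knockout and 5.81 on the wild-type array, 1.32-fold higher (0.40, local spread 0.34). It lies beside the decoy TRAIL receptor genes Tnfrsf22 and Tnfrsf23, which were near background. Tnfrsf22 read 4.11 on the array labelled knockout and 3.94 on the wild-type array, and Tnfrsf23 read 2.56 on the array labelled knockout and 2.05 on the wild-type array.

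The remaining members were near background on both arrays, so that only their measured values can be given. Past the level filter, the TRAIL gene Tnfsf10 read 3.09 on the array labelled knockout and 3.70 on the wild-type array (-0.62). Its death receptor, Tnfrsf10b, was under the filter at 2.15 on the array labelled knockout and 2.65 on the wild-type array. Tnfrsf19, which encodes TROY, a receptor known from stem cells of epithelium, read 3.98 on the array labelled knockout and 4.46 on the wild-type array (-0.48). RANK, encoded by Tnfrsf11a and needed for osteoclasts, read 3.37 on the array labelled knockout and 3.78 on the wild-type array (-0.40), and its ligand gene Tnfsf11 was under the filter at 2.38 on the array labelled knockout and 2.92 on the wild-type array. The decoy receptor osteoprotegerin, encoded by Tnfrsf11b, was under the filter at 2.37 on the array labelled knockout and 2.69 on the wild-type array.

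Tnfrsf12a, which encodes the TWEAK receptor Fn14, read 3.72 on the array labelled knockout and 4.04 on the wild-type array (-0.32). Cd40, the costimulatory receptor of B cells and antigen-presenting cells, read 3.91 on the array labelled knockout and 3.49 on the wild-type array (0.42). Tnfrsf8, which encodes CD30, read 3.28 on both arrays, and its ligand gene Tnfsf8 was under the filter at 1.68 on the array labelled knockout and 2.05 on the wild-type array. In all, 7 receptors and 6 ligands were under the filter. Differences under the filter ran from -0.49 to 0.78 for receptors and from -0.54 to 0.29 for ligands, and Fas was among them. These values lie in the range of the negative controls and carry no direction.

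Family members whose symbols do not follow the naming rule were also near background. Fasl, which encodes the ligand of Fas made by cytotoxic lymphocytes, read 2.99 on the array labelled knockout and 3.97 on the wild-type array (-0.98). The receptor genes Relt (4.69 on the array labelled knockout and 4.02 on the wild-type array) and Ngfr (2.66 on the array labelled knockout and 3.19 on the wild-type array) were the only others past the filter, out of 8 such ligand and receptor genes examined.

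Downstream of the receptors, the inhibitor A20 stood apart among the TRAF and death domain adaptors. Tnfaip3 (Entrez gene 21929), which encodes this ubiquitin-editing inhibitor of NF-κB, read 8.29 on the array labelled knockout and 8.89 on the wild-type array. This is 1.52-fold lower (-0.60, local spread 0.18), and it was the only one of 30 listed adaptors that differed by more than 3 local spreads, against 0.414% of genes lower and 0.698% higher by that measure. The list as a whole had a median of 0.14 (interval -0.14 to 0.29), with 18 higher and 12 lower as measured. Rnf31, a subunit of the linear ubiquitin ligase complex, was the only adaptor past 2-fold (1.08), but it was near background at 4.50 on the array labelled knockout and 3.42 on the wild-type array. Traf3ip2, an adaptor of IL-17 receptor signalling, was near background too, at 3.66 on the array labelled knockout and 4.33 on the wild-type array. Traip, a TRAF-interacting ubiquitin ligase, was near background at 3.43 on the array labelled knockout and 2.77 on the wild-type array. Besides Rnf31, the subunits of the linear ubiquitin ligase, Sharpin and Rbck1, had differences of 0.42 and 0.06. Cyld, another deubiquitinase that restrains NF-κB, read 5.20 on the array labelled knockout and 5.72 on the wild-type array, 1.44-fold lower (-0.52, local spread 0.38). T and B cells are known to express Tnfaip3 as well, and markers of both read lower on the same array. Macrophage markers read higher there (median 0.74), and the part of any cell type in the Tnfaip3 difference was not tested.

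Genes of the NF-κB pathway itself lay near 0 in the median as measured, where all genes past the filter had 0.08. After loess correction on level the medians were -0.11 for the pathway and 0.00 for all genes. The median of the 16 that passed the filter was 0.00 (interval -0.20 to 0.20), with 8 higher, 7 lower and 1 equal. None reached 1.5-fold, where the background shares were 9.16% higher and 5.16% lower. With 16 genes, no reading is drawn from that count. Map3k14 (Entrez gene 53859), which encodes NIK, the kinase of the non-canonical pathway used by the BAFF and lymphotoxin β receptors, read 5.56 on the array labelled knockout and 6.06 on the wild-type array, 1.42-fold lower (-0.51, local spread 0.33). Tab3, a TAK1-binding adaptor, was at 0.40, and Ikbkb, the IκB kinase β gene, at 0.35. The transcription factor genes Rela (-0.04), Rel (-0.20) and Relb (0.01, near background) were nearer 0 as measured. Set against genes of like level, Rela lay -0.91 and Rel -1.40 local spreads from the local median. By the same measure Map3k14 lay at -2.05, Tab3 at 0.83 and Ikbkb at 0.61.

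**Figure D3:**
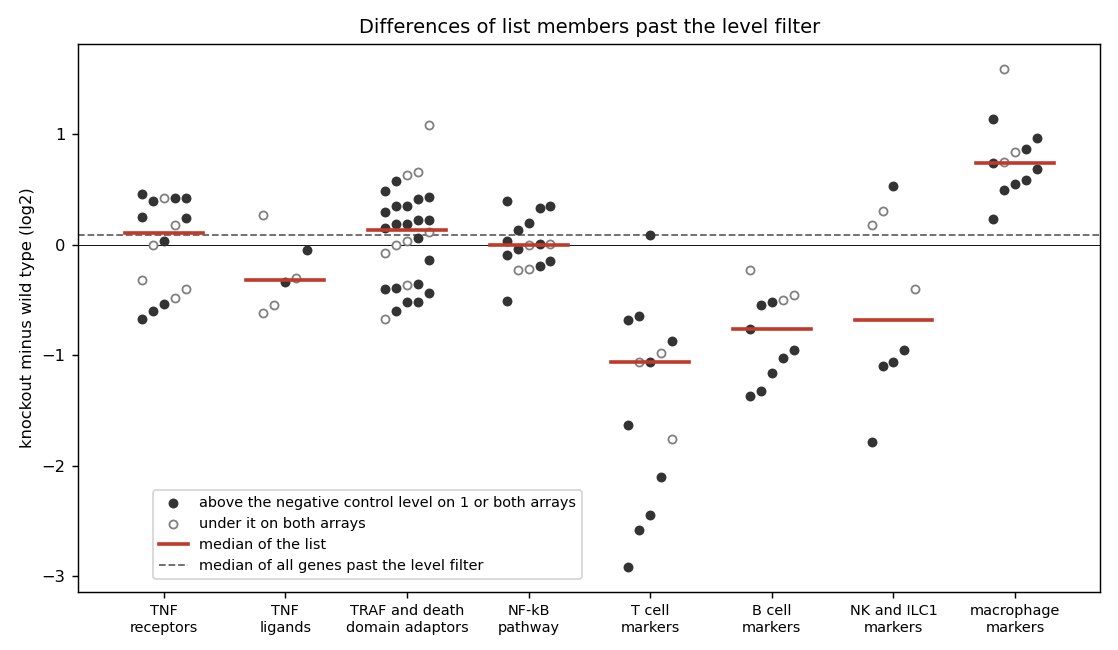
Differences of list members past the level filter. The y axis is knockout minus wild type on the log2 scale, each point is a gene, open points are under the negative control level on both arrays, red bars are list medians and the dashed line is the median of all genes past the filter, 0.08. Receptors (median 0.10), adaptors (0.14) and NF-κB genes (0.00) lie about the dashed line, ligands at -0.32, T and B cell markers at -1.06 and -0.76, and macrophage markers at 0.74. Of the 6 ligands 4 are open points, and Tnf, the only one above the level on both arrays, is at -0.05.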

How the data were processed

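Expression was deposited as log2 values for each probe set on each array. The authors used Affymetrix Power Tools with RMA, per the submitters' processing notes, while their versions and a genome build are not stated. RMA brings the probe readings of the arrays to a common distribution, so an overall change in RNA content would be hidden. The deposited values still held an offset. Of genes above the negative control level on both arrays 66.6% read higher on the array labelled knockout, with a median difference of 0.13. Quantile normalization of these values moved the difference of Tnfrsf1a from 0.43 to 0.30 and that of Tnfrsf18 from -0.67 to -0.76. Of 29129 probe sets 19572 carry 1 gene symbol in the annotation of the platform and 0 carry several. These stand for 19505 genes, of which 55 have more than 1 probe set, and there the brightest was used. The array named in the design text is not the one whose annotation fits these probe set names, so the array type is unsettled and every gene name rests on that annotation. Differences, local medians and spreads over 500 genes, list medians with order-statistic intervals (95%) and counts were computed with Python 3.11.15, numpy 2.4.6, pandas 2.3.3, scipy 1.17.1 and statsmodels 0.14.6, and plots with matplotlib 3.10.9. The code was tested on simulated data. With 2 arrays, 1 per genotype, no test was possible, and the number of arrays limits the precision.

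Members, gene lists, thresholds and motifs were chosen with earlier results of these data known. Every member past the level filter was to be named, and of those under it the partners of a named ligand or receptor. In each pathway list the 3 largest differences and any of 2-fold were to be named. Cell type marker lists are given by counts, medians and sums, and other genes named were chosen after their values were seen. Symbols and neighbours were read from the RefSeq table (GRCm38.p6). The alternatives were other level filters, centring, loess (span 0.3), quantile normalization, low values set to the negative control level, averaging over the probe sets of a gene, and calls at 1.5-fold or at 3 local spreads.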

Additional observations from a re-analysis of the deposited data

How the results depend on the processing

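No paired analysis was possible because each genotype has 1 array, and for the same reason no array could be left out. The count of receptors at least 2-fold lower, 0 as reported, was 2 at 1.5-fold, and that of ligands was 1. No receptor or ligand was 2-fold higher or lower under any other alternative, the threshold of 3 local spreads included. The receptor median lay between 0.00 (values raised to the negative control level) and 0.25 (filter at the 75th percentile, 9 receptors). The ligand median lay between -0.40 (centred) and 0.00 (raised), and the 75th percentile filter left 1 ligand, Tnf. Of the 22 members, 1 changed sign under centring, loess correction or quantile normalization, and this was Tnfrsf14. When low values were set to the negative control level, 3 members moved by more than a local spread, Lta, Tnfrsf19 and Tnfsf10, each to 0 because both readings were under that level. Signal over background also limits the comparison, since 23 of 35 members were near background. Past the level filter 10 of 22 members were near background, as were 4752 of all 10881 genes, so low signal is not particular to this family.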

Other observations

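Several genes carry TNF in their name without belonging to either family. Tnfaip2, a TNF-induced gene of myeloid and endothelial cells, read 5.98 on the array labelled knockout and 5.34 on the wild-type array, 1.56-fold higher (0.64, local spread 0.34). Tnfaip8, a regulator of apoptosis, read 6.02 on the array labelled knockout and 5.61 on the wild-type array (0.41, local spread 0.33). Adam17, which encodes the protease that sheds TNF and its receptors from the cell surface, read 5.35 on the array labelled knockout and 5.27 on the wild-type array, a difference of 0.08. C1qtnf12 was the most different of the 9 past the filter (0.72) but near background at 4.29 on the array labelled knockout and 3.57 on the wild-type array.

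Tnfrsf8 and Tnfsf13b had the same value on both arrays to within 1e-09, as did 509 of the 19505 genes (2.61%), so an exact match is not particular to these members.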
